A study of Danio rerio with 2 samples.

Results

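The insulin-like growth factor receptor and its adaptor genes were followed through 8 assays of a PCR array of the zebrafish PI3K-Akt pathway. They were taken by gene symbol from the 84 pathway genes of the array, and are igf1 (the ligand), igf1ra (the receptor), irs1 (a docking protein), grb10a, shc1 and grb2b (adaptors), sos1 (an exchange factor) and hrasa (a Ras GTPase). RNA came from whole larvae at 10 days post fertilization (dpf). NOD1-deficient larvae were homozygous for a 1 bp insertion in nod1 (NOD1-1IS-/-) made with Cas9 and a guide RNA, so that they represent 1 mutant allele, and WT larvae were of the AB/TU background. NOD1 itself is an intracellular receptor for bacterial peptidoglycan fragments. Each genotype had 3 biological replicates, with RNA pooled from 200 to 250 larvae and measured on a separate array, and the labels name no other treatment. The array has no assay for nod1, so the genotypes rest on the labels, and p-values cover the spread between these pools.

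Insulin-like growth factor binds a receptor tyrosine kinase, which phosphorylates itself and its docking proteins. Irs proteins then recruit PI3-kinase and so lead to Akt, while Shc and Grb2 bring the exchange factor Sos to the membrane, where it loads Ras with GTP and so opens the MAP kinase branch. Grb10 binds the same receptors and, in mammals, limits their signalling. In fish, as in mammals, the axis is known for its part in body growth. Many of its genes are present in duplicate in zebrafish, and the array assays 1 copy of each. Of 12 related symbols that were looked for, such as igf1rb, grb2a, hrasb, insra and insrb, 0 were among the 84 pathway genes. Primer sequences were not used here, and whether an assay also amplifies a duplicate copy was not tested.

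Each well of an array yields a threshold cycle (Ct), reached when its fluorescence passes a set level. A low Ct stands for much template. The Ct of the 8 genes lay between 21.6 and 29.7 cycles over the 6 arrays, with none missing, and no Ct of theirs was above the ceiling of 35. The level of a gene was its Ct after subtracting the mean over 3 reference genes (hprt1, nono and rpl13a) of that array, called delta Ct. It is also given as a percentage of the reference mean (2 raised to minus delta Ct, in percent). Levels of different genes can be set side by side only on the assumption that their primers amplify equally well.

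In NOD1-deficient larvae irs1, grb2b, shc1 and sos1, the genes that carry the signal from the receptor to PI3-kinase and Ras, were lower than in WT larvae by 0.42 to 0.61 on the log2 scale. This was 65.6% to 74.8% of the WT level. The receptor igf1ra, the inhibitory adaptor grb10a and the GTPase hrasa had smaller log2 changes of -0.18, -0.27 and -0.11, and the ligand igf1 one of 0.17, and none of these passed the test. By that test (limma, adjusted p under 0.05) irs1, grb2b, shc1 and sos1 passed, and 15.5% of the 84 genes were called lower. With the same reference genes but a linear model with a separate variance for each gene, 0 of the 8 passed, against 7.14% of the 84. The adjusted p in that model was 0.109 to 0.301 for irs1, grb2b, shc1 and sos1. The calls also held only with certain reference genes. The order of the 8 changes cannot depend on them, since another choice adds the same constant to each. This order did move with single replicates. Without NOD1-deficient replicate 1, sos1 (-0.35) was less changed than grb2b (-0.54), irs1 (-0.49) and shc1 (-0.41).

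From grb10a to igf1 the levels spanned 7.23 cycles in NOD1-deficient larvae and 7.67 cycles, or 204-fold, in WT larvae. The highest was grb10a, with a delta Ct of 2.20 ± 0.0425 in NOD1-deficient and 1.93 ± 0.195 in WT larvae (SD, n = 3 each). A middle group followed. In NOD1-deficient larvae it ran in the order igf1ra (3.33 ± 0.0416), grb2b (3.36 ± 0.0759), hrasa (3.60 ± 0.0823) and shc1 (3.64 ± 0.0255), where grb2b and hrasa were apart and the other neighbours overlapped. In WT larvae the same group ran grb2b (2.87 ± 0.165), igf1ra (3.15 ± 0.266), shc1 (3.22 ± 0.220) and hrasa (3.49 ± 0.148), and the replicates of each neighbouring pair overlapped. The lower levels were those of irs1, sos1 and igf1 in both genotypes, and none of these neighbours overlapped. Their delta Ct were 6.41 ± 0.261, 7.51 ± 0.459 and 9.43 ± 0.0310 in NOD1-deficient larvae, against 5.82 ± 0.340, 6.90 ± 0.0988 and 9.60 ± 0.239 in WT larvae (SD, n = 3). Among the 84 pathway genes, igf1 was the 80th and sos1 the 74th from the highest level in WT, while grb10a was the 28th.

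**Figure D1:**
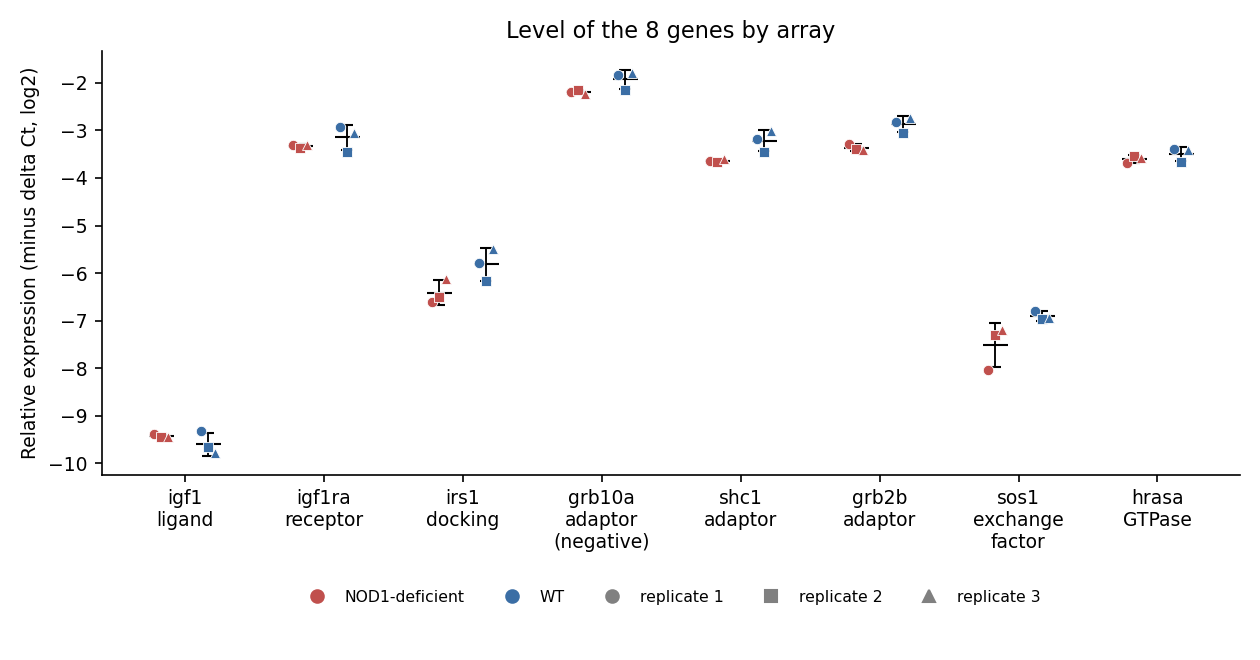
Relative expression (minus delta Ct, log2 scale, higher is more) of the 8 genes on each array, NOD1-deficient in red and WT in blue, with the mean and SD of 3 replicates. The genes span 7.67 cycles in WT from grb10a to igf1, and for most genes the genotypes differ by far less than the genes do.

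The ligand igf1 was measured late in the PCR. On the NOD1-deficient arrays it stood at 0.149%, 0.144% and 0.143% of the reference mean, against 0.155%, 0.123% and 0.113% on the WT arrays. The WT values enclosed the NOD1-deficient values, which were close to each other. The log2 change was 0.17 ± 0.158 (SE), with a 95% interval of -0.14 to 0.48 and an adjusted p = 0.523 (limma over the 84 genes, Benjamini-Hochberg). It was 0.07 without WT replicate 3 and 0.30 without WT replicate 1. RNA of whole larvae cannot tell fewer cells of a type from less RNA per cell, and this holds for all genes below.

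For the receptor igf1ra, the 3 NOD1-deficient replicates stood at 10.1%, 9.61% and 10.1% of the reference mean, and the WT replicates at 13.1%, 9.17% and 12%. They overlapped through WT replicate 2. Its log2 change of -0.18 ± 0.158 (SE) had a 95% interval of -0.49 to 0.13 and an adjusted p = 0.489 in limma. It was -0.08 without WT replicate 1 and -0.33 without WT replicate 2 (adjusted p = 0.0567).

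The docking protein irs1 is annotated on the array as insulin receptor substrate 1-B-like. Its accession did not match the RefSeq gene table used here (assembly GRCz12tu), although its symbol did, while the other 7 matched by accession. It stood at 1.02%, 1.10% and 1.44% in NOD1-deficient larvae, against 1.81%, 1.39% and 2.22% in WT larvae. The highest NOD1-deficient value, replicate 3, was just above the lowest WT value, replicate 2. The log2 change was -0.59 ± 0.158 (SE), 1.51-fold lower, with an adjusted p = 0.00147 in limma.

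Of the adaptors, grb2b links phosphorylated receptors and Shc to Sos through its SH2 and SH3 domains. Its levels were 10.3%, 9.50% and 9.36% in NOD1-deficient larvae, against 14.2%, 12.1% and 15.0% in WT larvae, and the groups did not overlap. The log2 change was -0.50 ± 0.158 (SE), 1.41-fold lower, with an adjusted p = 0.0112 in limma.

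The adaptor shc1, which is phosphorylated by the receptor and then binds Grb2, had 7.99%, 7.93% and 8.20% in NOD1-deficient larvae, against 11.1%, 9.12% and 12.3% in WT larvae. Here too all NOD1-deficient values were below all WT values. The log2 change was -0.42 ± 0.158 (SE), 1.34-fold lower, and its adjusted p = 0.0447 in limma was the closest to the threshold among the genes that passed.

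The inhibitory adaptor grb10a stood at 21.8%, 22.4% and 21.1% in NOD1-deficient larvae and 27.9%, 22.5% and 29.0% in WT larvae. The groups did not overlap, but the gap between NOD1-deficient replicate 2 and WT replicate 2 was only 0.0087 on the log2 scale. Its log2 change of -0.27 ± 0.158 (SE) did not pass (adjusted p = 0.231, limma), with a 95% interval of -0.58 to 0.04. It was called lower without WT replicate 2 (-0.38, adjusted p = 0.0307) and with nono alone as the reference gene (-0.44, adjusted p = 0.0394).

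The exchange factor sos1 had the largest change of the 8 genes and the largest spread in NOD1-deficient larvae, with 0.381%, 0.634% and 0.685%, against 0.905%, 0.797% and 0.814% in WT larvae. The groups did not overlap, and NOD1-deficient replicate 1 lay well below the other 2. The log2 change was -0.61 ± 0.158 (SE), 1.52-fold lower, with an adjusted p = 0.00109 in limma. Without NOD1-deficient replicate 1 it was -0.35 and the adjusted p = 0.215, and without WT replicate 2 the adjusted p = 0.0732.

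At the end of the branch, hrasa stood at 7.74%, 8.66% and 8.34% in NOD1-deficient larvae and 9.57%, 7.93% and 9.35% in WT larvae, with overlap. Its log2 change of -0.11 ± 0.158 (SE) had a 95% interval of -0.43 to 0.20 and an adjusted p = 0.707 in limma. With single replicates left out it lay between -0.20 (without WT replicate 2) and -0.06 (without WT replicate 1).

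**Figure D2:**
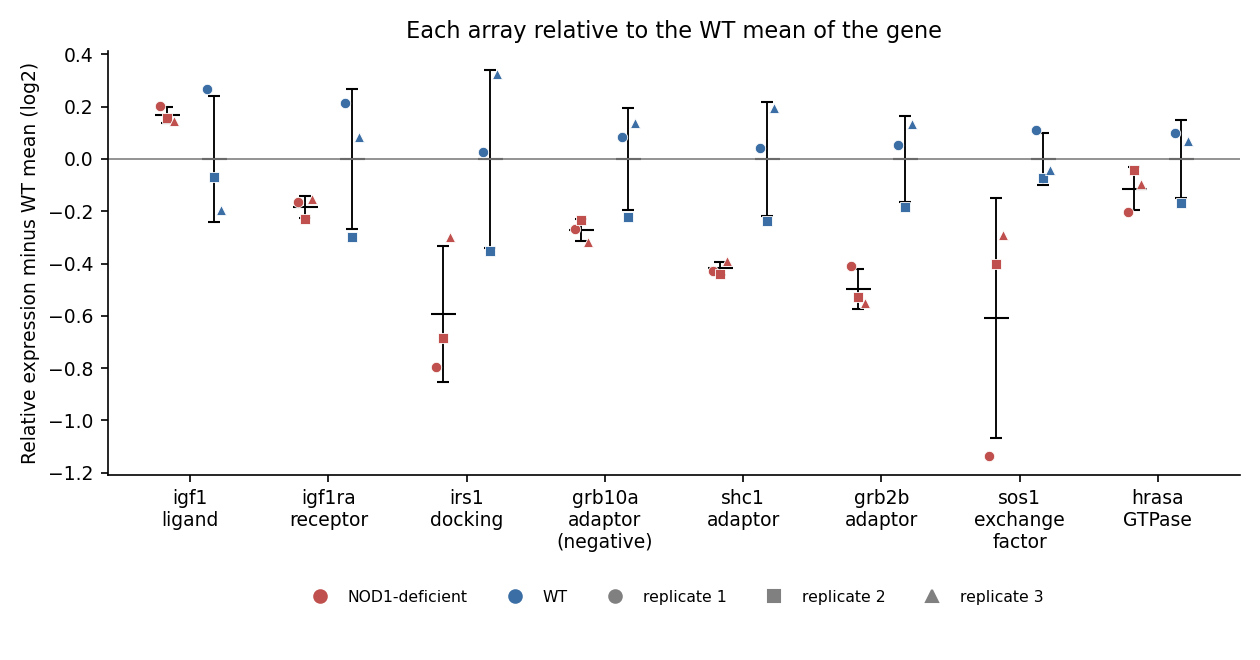
Relative expression of each array (log2) after subtraction of the WT mean of the gene, NOD1-deficient in red and WT in blue, symbols for replicates, with the mean and SD of each group of 3. All 8 genes of WT replicate 2 (blue squares) lie below the WT mean, and sos1 in NOD1-deficient replicate 1 lies furthest from its group.

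In all, 4 of the 8 genes passed at an adjusted p under 0.05 in limma, all of them lower in NOD1-deficient larvae, where 15.5% of the 84 pathway genes were called lower and 19.0% called in either direction. The replicates were apart for 4 of the 8 (grb2b, grb10a, shc1 and sos1, all lower), against 21.4% of the 84 genes apart in that direction. By exact permutation the p of each of these 4 was 0.1, the smallest that 3 replicates against 3 allow, and it was 0.2 for irs1. A change below 0 was seen for 7 of the 8 genes, where 70.2% of the 84 were below 0. The median log2 change was -0.35 over the 8 genes and -0.11 over the 84. No change of the 8 reached 2-fold.

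The calls also depended on the variance estimate. In limma all genes shared 1 SD, 0.194, and so 1 SE of the change, 0.158. From each gene's own replicates this SE ran from 0.0979 (hrasa) to 0.271 (sos1). With a separate variance for each gene (a linear model without moderation) 0 of the 8 genes passed after adjustment, where 7.14% of the 84 passed. Unadjusted, 2 of the 8 (grb2b and shc1) were under 0.05 in this model, and the matching unadjusted share of the 84 is not given here. The adjusted p was then 0.109 for grb2b, 0.166 for shc1, 0.295 for irs1 and 0.301 for sos1. With 1 replicate left out at a time, limma called 1 to 4 of the 8 genes, and 10 to 21 of the 84. Without WT replicate 3 only sos1 was called among the 8, against 8 of the 84 called lower, and irs1 (-0.43) and grb2b (-0.43) each had an adjusted p = 0.0997. The call of shc1 was kept only when WT replicate 2 was left out.

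**Figure D3:**
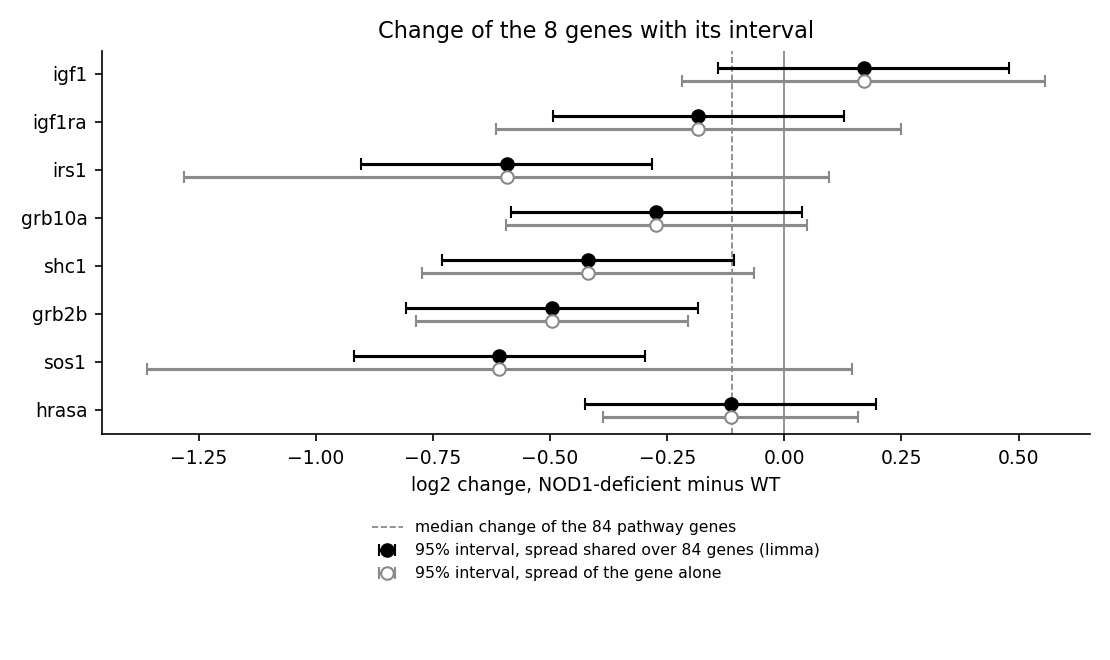
Log2 change of the 8 genes (NOD1-deficient minus WT) with its 95% interval, from the spread that limma shares over the 84 genes (black) and from the gene's own 3 and 3 replicates (grey). The black intervals of irs1, shc1, grb2b and sos1 exclude 0; of the grey intervals, those of shc1 and grb2b do. The dashed line is the median change of the 84 genes, -0.11.

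The reference genes moved with these results, and why they did was not tested. By construction, each scaled log2 change is the change before scaling less the log2 difference of the reference mean. Averaged over the 3 reference genes, Ct was 19.5 ± 0.107 in NOD1-deficient and 19.8 ± 0.144 in WT arrays (SD, n = 3 each), a log2 difference of 0.30 towards more reference signal in NOD1-deficient larvae (p = 0.1, exact permutation). The positive PCR control wells, taken by their position on the plate, had a Ct lower by 0.15 in NOD1-deficient arrays. These values did not overlap (exact permutation p = 0.1). Of the 3 reference genes used, nono had a log2 difference of 0.46 before scaling, with no overlap. Those of hprt1 (0.16) and rpl13a (0.27) overlapped (exact permutation p = 0.1, 0.3 and 0.2). Of the reference genes not used, acta1b, a skeletal muscle actin, had a log2 difference of -0.61 without overlap, and b2m one of -0.20 with overlap. On the WT arrays the reference mean was 19.8, 19.6 and 19.9, and the array with the lowest, replicate 2, had all 8 genes below their WT means. As measured, before any scaling, igf1 and hrasa had log2 differences of 0.47 and 0.18 with no overlap (exact permutation p = 0.1 for each). Those of grb2b, shc1, irs1 and sos1 were -0.20, -0.12, -0.30 and -0.31 with overlapping replicates. The control wells had a log2 difference of 0.15 in the same direction as igf1 and hrasa, close to that of hrasa. The share of all pathway genes apart before scaling is not given here, so these 2 separations cannot be set against the array.

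Another choice of reference genes adds the same constant to each of the 8 changes, and with it the calls turned. With hprt1 alone, or with 4 reference genes without acta1b, only irs1 and sos1 of the 8 were called lower. In each of these settings 9 of the 84 genes were called lower. With all 5 reference genes 0 of the 8 genes were called lower and igf1 was called higher (log2 change 0.45, adjusted p = 0.011). It was called higher as well with b2m alone (0.67, adjusted p = 0.00108), with acta1b alone (1.08, adjusted p = 0.000849) and with the median Ct of the 84 genes (0.43, adjusted p = 0.0237). With acta1b alone all 8 changes were above 0, and igf1ra, grb10a and hrasa were called higher too. Most of the array was called in that setting, 72 of the 84 genes and 2 of them lower, and with b2m alone 41 were called and 4 of them lower. With the median Ct of the 84 genes 25 of them were called, 7 of them lower. Scaled to the positive PCR control wells, none of the 8 passed, against 10 of the 84. The array as a whole moved likewise. Of the 84 genes 16 were called with the 3 reference genes, 13 of them lower, against 22 with all 5, 6 of them lower, and the median change of the 84 was then 0.17. The distance of the median of the 8 genes from the median of the 84, -0.23 on the log2 scale, was the same under each of these scalings by construction.

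**Figure D4:**
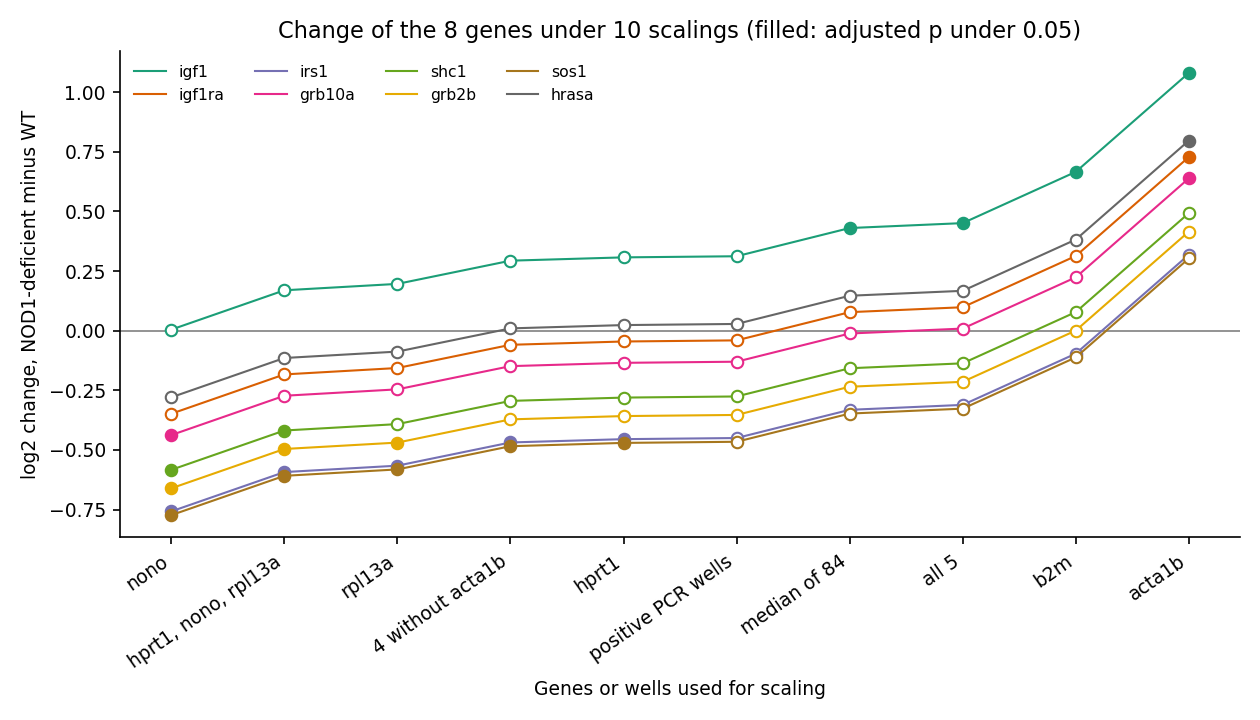
Log2 change (NOD1-deficient minus WT) of the 8 genes under 10 scalings of the arrays, ordered by the constant each adds; filled points had an adjusted p under 0.05 in limma. The lines are parallel, igf1 is the highest and sos1 the lowest under each scaling, and the calls pass from 5 genes lower with nono alone on the left to 4 genes higher with acta1b alone on the right.

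Ratios of 2 genes on the same array need no reference gene. The ratio of each gene to the receptor igf1ra was therefore compared between the genotypes. The ratio of grb2b to igf1ra was -0.03 ± 0.0776 in NOD1-deficient larvae and 0.28 ± 0.143 in WT larvae (log2, SD, n = 3 each), a difference of -0.31 with no overlap. That of shc1 to igf1ra was -0.30 ± 0.0270 in NOD1-deficient larvae and -0.07 ± 0.152 in WT larvae, a difference of -0.24, again with no overlap. The 95% interval from the own spread was -0.57 to -0.05 for grb2b and -0.48 to 0.01 for shc1, where it included 0. For sos1 the difference was -0.43 with a gap of only 0.01 between the groups, and its 95% interval from the own spread, -1.24 to 0.39, was wide. For irs1 it was -0.41 with overlap. Each of grb2b, shc1 and sos1 had an exact permutation p = 0.1 and 0.175 after Benjamini-Hochberg adjustment over the 7 ratios, so that none could pass. For these 3 of 7 genes the ratio to igf1ra was lower in NOD1-deficient larvae without overlap, against 13.3% of the other 83 pathway genes. The ratios of grb10a and hrasa to igf1ra differed by -0.09 (95% interval -0.31 to 0.13) and 0.07 (-0.20 to 0.34). When each replicate was left out in turn, the difference for grb2b ran from -0.39 to -0.26, that for shc1 from -0.32 to -0.18, and that for sos1 from -0.57 to -0.15.

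**Figure D5:**
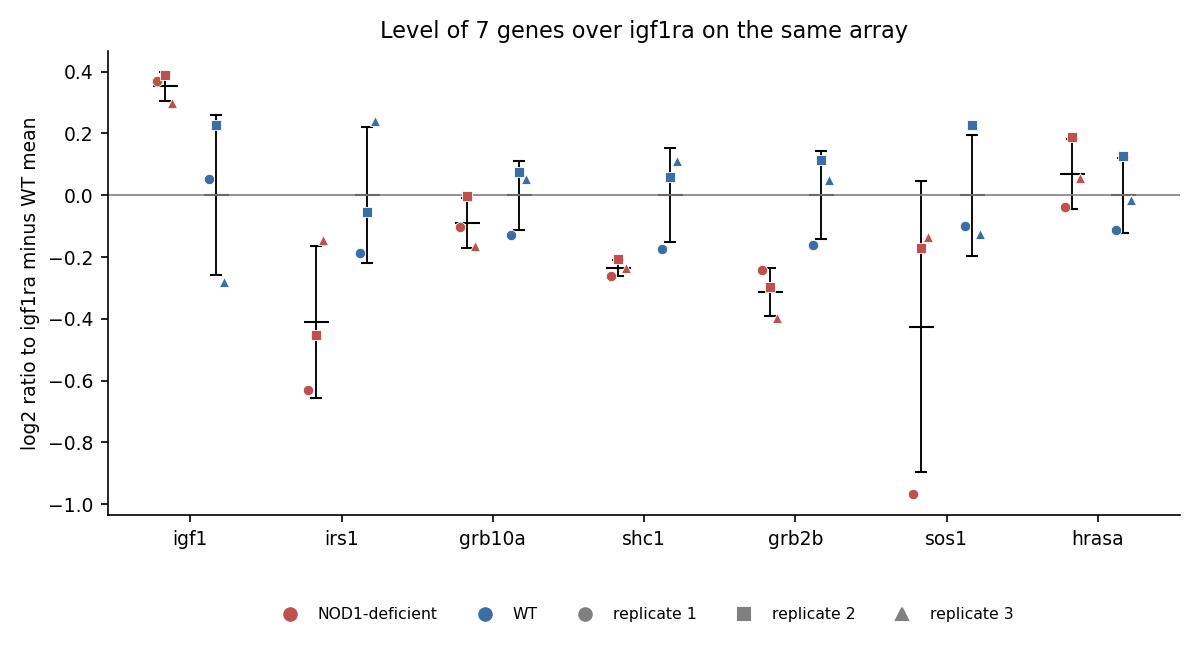
Log2 ratio of 7 genes to igf1ra on the same array, after subtraction of the WT mean of the ratio, NOD1-deficient in red and WT in blue, with the mean and SD of 3 replicates. The NOD1-deficient ratios of shc1, grb2b and sos1 lie below all WT ratios and those of igf1 above all WT ratios; irs1, grb10a and hrasa overlap.

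The ratios of igf1 to genes other than igf1ra, and the remaining ratios of 2 members, were chosen after the values had been seen. On the same array igf1 was higher in NOD1-deficient larvae relative to each of the other 7 genes, with no overlap in 7 of 7 (exact permutation p = 0.1 each, 0.165 after adjustment over all 28 ratios of 2 members). This share is to be read against 44.6% of the other 83 pathway genes, relative to which igf1 was higher without overlap. The ratio of igf1 to igf1ra was -6.09 ± 0.0468 in NOD1-deficient larvae and -6.45 ± 0.258 in WT larvae (log2, SD, n = 3 each), a difference of 0.35, or 1.28-fold. It was 0.21 without WT replicate 3 and 0.47 without WT replicate 2. The difference was 0.59 against shc1, 0.67 against grb2b, 0.76 against irs1 and 0.78 against sos1. Over all 28 ratios of 2 of the 8 genes, 17 did not overlap between the genotypes, and 10 of the 21 without igf1. Among all pairs of the 84 genes the share was 43.4%. Ratios that share a gene are not independent of each other.

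The genes of the Shc, Grb2 and Sos complex were also compared among themselves. The ratio of grb2b to shc1 was 0.27 ± 0.0898 in NOD1-deficient and 0.35 ± 0.0594 in WT larvae (log2, SD, n = 3 each), a difference of -0.08 with a 95% interval of -0.25 to 0.10. For grb2b to sos1 the difference was 0.11 (-0.78 to 1.0) and for shc1 to sos1 0.19 (-0.61 to 0.99), intervals that leave room for changes in either direction because of the spread of sos1. Relative to hrasa, the Ras protein that this complex acts on, grb2b, shc1, sos1 and irs1 had log2 differences of -0.38, -0.30, -0.49 and -0.48, each without overlap. The 95% intervals of grb2b (-0.64 to -0.12) and shc1 (-0.53 to -0.08) excluded 0. Those of sos1 (-1.14 to 0.15) and irs1 (-1.01 to 0.05) did not. The ratio of the inhibitory adaptor grb10a to hrasa was lower in NOD1-deficient larvae as well (-0.16, 95% interval -0.32 to 0.01), also without overlap. This made 5 of 7 genes, against 19.3% of the other 83 pathway genes (exact permutation p = 0.1 each, 0.165 after adjustment over the 28 ratios).

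Other genes of the pathway were then read from 4 lists. Downstream of Ras, 9 genes of the MAP kinase branch were on the array. Of these elk1, a transcription factor phosphorylated by MAP kinases, was called lower (log2 change -0.66, adjusted p = 0.000369, limma). The immediate early gene fos was called higher (0.73, adjusted p = 8.93e-05, limma). The other 7 were not called, among them raf1a (-0.21), the kinase next to Ras, and map2k1 (-0.07), the kinase after it. Downstream of Irs, 1 of 9 genes from PI3-kinase to Akt was called, the regulatory subunit pik3r2 (-1.46, adjusted p = 8.63e-17), which was lower, and 8 were not. Of the 9, 8 changes were below 0, with a median of -0.21. This is to be read against 70.2% of the 84 genes below 0, with a median of -0.11. The receptor-level genes pdgfra, a growth factor receptor (-0.14), and ptpn11a, a phosphatase that binds receptors (-0.03), were not called. Neither were the 5 genes of the mTOR branch, which in mammals feeds back on Irs proteins, with changes from -0.33 to 0.02. Adjusted p-values are from limma. With a separate variance for each gene (the linear model without moderation), fos did not pass (adjusted p = 0.127). In that model elk1 (adjusted p = 0.0473) and pik3r2 (adjusted p = 0.0121) still passed. With all 5 reference genes the counts were 2 higher and 1 lower in the MAP kinase list and 1 higher and 1 lower in the PI3-kinase list, and 0 in the remaining lists.

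The pathway genes whose profile over the 6 arrays was closest to the median profile of the 8 genes were pkn3, akt1 and prkca. Their mean absolute distance from it was 0.0573, 0.0639 and 0.0660 on the log2 scale, and their log2 changes were -0.29, -0.21 and -0.28, none of which passed (adjusted p = 0.189, 0.408 and 0.218, limma). Among the 8 genes themselves, grb10a was the closest to this profile (0.0392) and igf1 the furthest from it (0.345).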

How the data were processed

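Per the labels, TRIzol RNA (1000 ng) was reverse transcribed with SuperScript III and amplified with SYBR Green for 40 cycles on 96-well arrays. The authors deposited raw Ct (3 columns per genotype, taken as the 3 biological replicates of the design text), and normalized values, which are linear ratios of each gene to reference genes made with the manufacturer's software, with 1 value per genotype. For the 8 genes these ratios differed from those computed here by at most 2.24e-07 on the log2 scale. A deposited table of fold changes holds the authors' own comparison and was not used. Settings of baseline and threshold are not given in the sources used here. Labels name no array run, so run and genotype cannot be told apart.

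Delta Ct used hprt1, nono and rpl13a, with Ct above 35 set to 35, and assumed doubling in each cycle. Minus delta Ct of the 84 pathway genes was fitted by lmFit and eBayes of limma 3.58.1 under R 4.3.3. Two-sided p-values were adjusted by Benjamini-Hochberg across these 84, at a threshold of 0.05. The prior degrees of freedom were infinite, so each SE was equal. Single values were tested by exact permutation, two-sided. Intervals of ratios used the own spread with 4 residual degrees of freedom. The fit was tested on simulated data with the same spread for each gene and no shift of whole arrays or reference genes. It therefore cannot tell how the calls fare where spreads differ or arrays shift. The members and lists were chosen with earlier results of these data known. Named genes were the 8 members, called genes of the lists with a few of their neighbours in the pathway, the 3 closest profiles and reference genes. The genes of the lists named without a call were picked after their values were seen. Alternatives were other reference genes, median or control-well scaling, a ceiling of 40, limits of 35 and 30 on the mean Ct, other variance models, the replicate number as a block and leaving out replicates. Arrays give no read depth, and their number limits the precision.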

Additional observations from a re-analysis of the deposited data

How the results depend on the processing

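The number of the 8 genes called lower (4) became 0 with all 5 reference genes, acta1b alone, b2m alone, the median Ct of the pathway genes, the positive PCR control wells, and the linear model without moderation, and 2 with hprt1 alone or without acta1b. In these settings, in the order given, 6, 2, 4, 7, 5, 5, 9 and 9 of the 84 genes were called lower. Leaving out single replicates gave 1 to 4 genes, against 8 to 16 of the 84 called lower, with the lowest numbers without WT replicate 3. The 4 genes with replicates apart became 2 with all 5 reference genes. With a replicate left out the number ran from 4 to 7, the highest when WT replicate 2 was omitted. Each array is scaled by itself, so leaving 1 out could only keep or raise this number, and it is no check on the 4. Under the remaining alternatives 3 to 5 genes were called lower, and 3 to 5 had replicates apart. Of all pathway genes, from 11 (rpl13a alone and the replicate block) to 24 (nono alone) were called lower there. The counts of genes apart take either direction. With the median Ct 3 were apart, among them igf1 (0.43) and hrasa (0.15), which were higher in NOD1-deficient larvae. The share of the 84 genes apart is given above for the main setting and the lower direction only. With acta1b alone 6 were apart, with all 8 changes above 0, and 72 of the 84 genes were called.

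The 8 genes' median log2 change (-0.35) turned to 0.57 when scaled to acta1b and to 0.15 when scaled to b2m. It was -0.51 on nono, -0.21 on hprt1, -0.20 on the positive PCR control wells, -0.085 on the median Ct and -0.064 on all 5 reference genes. Single genes turned higher as follows. With all 5 reference genes these were grb10a (0.0087), hrasa (0.17) and igf1ra (0.098). With acta1b alone they were grb10a (0.64), grb2b (0.42), hrasa (0.80), igf1ra (0.73), irs1 (0.32), shc1 (0.49) and sos1 (0.30). With b2m alone they were grb10a (0.22), grb2b (0.00055), hrasa (0.38), igf1ra (0.31) and shc1 (0.078). With the median Ct they were hrasa (0.15) and igf1ra (0.078), and hrasa alone with hprt1 (0.023), without acta1b (0.0095) and with the control wells (0.028). The shift is a constant by construction. Of 168 values of single genes 20 turned. Of the others, 109 kept their side of the threshold, 33 lost the call and 6 gained it. Only irs1, grb2b, shc1 and sos1 had a call to lose, and kept it in 14, 12, 6 and 13 of 21 alternatives. These include the Ct ceiling and mean Ct limits, which could not move any change. The variance models and replicate block could move a call but not a direction. The 109 are therefore no measure of how well the changes held.

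Same-numbered arrays of the 2 genotypes had no common deviation, with correlations of 0.12, 0.085 and -0.27 over the 84 genes, so the numbers were not taken as pairs. Under the replicate block 3 of the 8 genes were called (grb2b, irs1 and sos1), against 14 of the 84. No Ct of the 8 genes was above 29.7, and the late Ct limits and the ceiling of 40 changed none of their counts.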
